A study of Brachypodium distachyon with 24 samples.

Results

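Transcript abundance was examined for 5 genes that the study of *Brachypodium distachyon* names among the drought genes of the leaf. They are Bradi1g51770, a late embryogenesis abundant (LEA) gene, Bradi1g37410 and Bradi3g43870, both orthologs of the Arabidopsis dehydrin RAB18, Bradi4g24650, an ortholog of rice ASR5, and Bradi1g65130, displayed by the study as an example of a genotype by environment interaction (G × E) and given no function in the sources used here. The 5 genes were found by their identifiers among the 32439 genes of the count table, and all 5 passed the filter on low counts that left 22629 genes for testing.

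RNA-seq of leaves from 24 plants was analysed. F1 hybrids between 2 inbred accessions, made with Bd21 pollen on Bd3-1 flowers, had 5 drought and 5 control plants. Bd3-1 had 3 drought and 5 control plants, and Bd21 had 3 drought and 3 control plants. Drought plants were dried from day 33 after sowing for 6 days, to 55% of the water that the soil holds against gravity (field capacity), and control plants were kept at 85%. The F1 plants were dried down in an experiment of their own. A difference between F1 and parental plants therefore cannot be told apart from one between the experiments. The series text places 2 of the Bd3-1 control plants in the F1 harvest without saying which. Every comparison that uses the Bd3-1 control plants thus mixes plants of both experiments. Among these are the Bd3-1 drought response, the accession difference in control and the G × E between the accessions. The study chose these genes from another RNA-seq of its main experiment, in which the other parental plants were grown, so that the direction of their response in the parents is not independent evidence here.

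A drying leaf makes abscisic acid (ABA), a hormone that closes the stomata and switches on a set of protective genes. LEA proteins, of which dehydrins are one class, are very hydrophilic proteins that accumulate in maturing seeds and in vegetative tissue that loses water, where they are thought to shield membranes and enzymes. ASR proteins (ABA, stress and ripening) are small hydrophilic proteins of plants that are likewise known from water stress, and rice ASR5 is known as a regulator of aluminium-responsive genes.

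The libraries held between 6.91 M and 42.35 M estimated counts (median 21.58 M), and the shallowest 2 both came from Bd21 (drought replicate 2, control replicate 1). Abundances are given below as normalized counts, that is, counts scaled to a common library of 21.85 M. Genes were not compared in level with each other because normalized counts are not divided by length. A chlorophyll a-b binding protein gene named by the study, Bradi4g31257, had at least 802 normalized counts in every library. It was lower in F1 drought plants, at a mean of 1225 ± 280, against 2960 ± 1208 in F1 control plants (SD, n = 5 each; log2 difference -1.27, adjusted p = 0.00166, edgeR's quasi-likelihood test). The stay-green gene Bradi4g36060, a marker of senescing leaves, averaged 2001 ± 920 in F1 drought and 628 ± 543 in F1 control plants (adjusted p = 0.0847, same test). Neither passed in Bd3-1 or Bd21. The part of leaf ageing in the results below was not tested.

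Drought raised 4 of the 5 genes and lowered Bradi1g65130 in the F1 hybrid, and the log2 difference of each gene had the same sign in all 3 genotypes. By edgeR's quasi-likelihood test with Benjamini-Hochberg adjustment over the 22629 genes, all 5 genes passed an adjusted p of 0.05 in the F1 hybrid, where 14.9% of all genes passed, 7.58% as higher and 7.31% as lower. In Bd3-1, 3 genes passed as higher and 1 as lower, where 0.72% of all genes passed, 0.433% as higher and 0.287% as lower. In Bd21, 1 gene passed as higher, the LEA gene Bradi1g51770, where 0.0972% of all genes passed and 0.0751% as higher. Each of the 5 genes had an unadjusted p under 0.05 in each of the 3 genotypes, as had 27.3% of all genes in the F1 hybrid, 12.4% in Bd3-1 and 8.75% in Bd21. The median log2 difference of the 5 genes was 5.81 in the F1 hybrid, 4.19 in Bd3-1 and 4.35 in Bd21, beside medians of 0.04, -0.01 and 0.01 over all genes. The parental medians are the same with Bradi1g37410 at its lower bound (below). Replicates are plants that the labels number within a group. The p-values rest on the spread between plants of a group, estimated over all 24 libraries and not from the compared groups alone. DESeq2's Wald test also found 5 of the genes in the F1 hybrid and 4 in Bd3-1, where it called 4193 and 726 of all genes. In Bd21 it found 4, where it called 220 genes instead of 22.

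**Figure D1:**
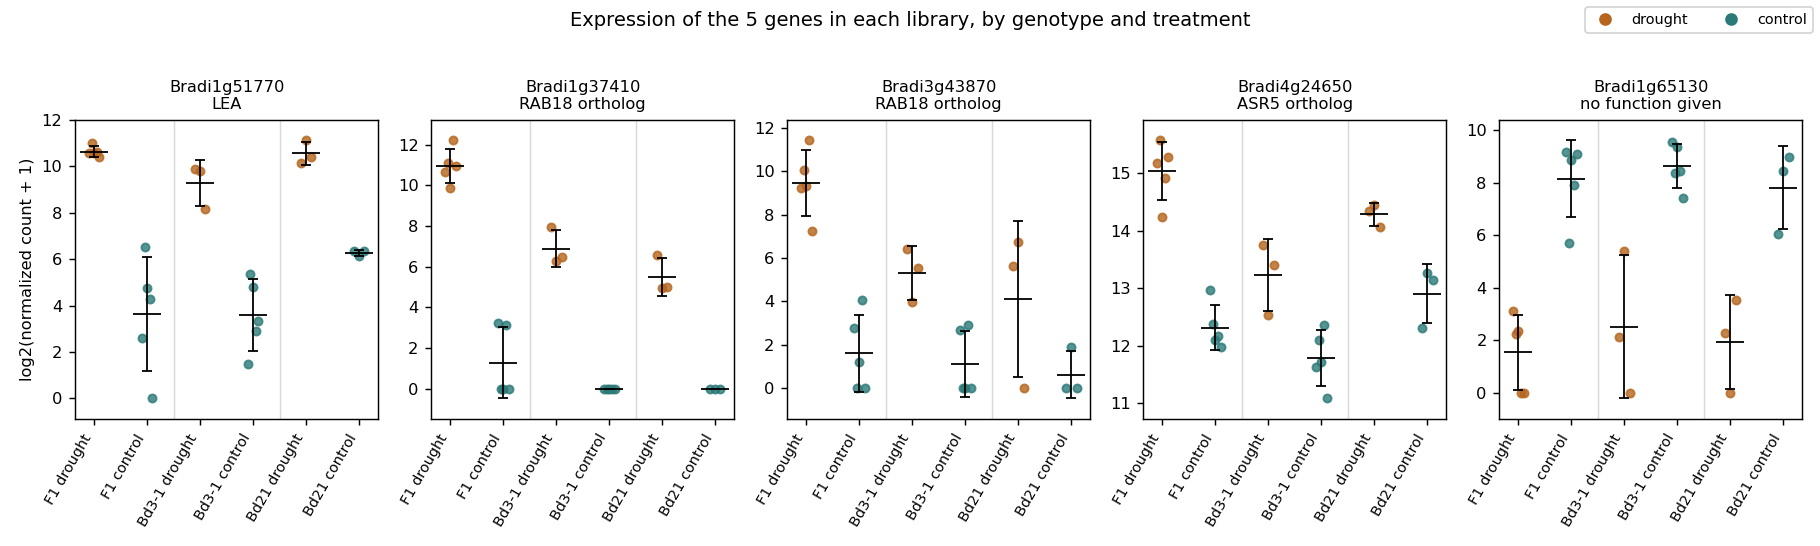
Expression of the 5 genes in each library, as log2(normalized count + 1), by genotype and treatment. Points are plants (n = 5, 5, 3, 5, 3 and 3 from left to right), horizontal bars are means and vertical bars SDs. Drought plants lie above control plants for the 4 genes on the left and below them for Bradi1g65130, except that 1 Bd21 drought plant has no count for Bradi3g43870.

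Bradi1g51770, the LEA gene, was low in control leaves and high in every drought leaf. F1 drought plants had 1501, 2047, 1506, 1575 and 1341 normalized counts, against 5.11, 91.4, 26.0, 18.2 and 0 in F1 control plants. Bd3-1 drought plants had 943, 898 and 283, against 1.79, 40.2, 27.0, 6.56 and 9.00 in Bd3-1 control plants. In Bd21 they had 1135, 2212 and 1343, against 79.6, 68.4 and 80.7 in control plants. Drought and control plants did not overlap in any genotype, and Bd3-1 drought replicate 3, at 283, was the lowest drought plant. Groups separate in this way in 10.5% of all genes in the F1 hybrid, 11.0% in Bd3-1 and 14.2% in Bd21. The log2 difference was 5.81 in the F1 hybrid (standard error 0.72, adjusted p = 1.73e-05), 5.39 in Bd3-1 (standard error 0.76, adjusted p = 0.000637) and 4.35 in Bd21 (standard error 0.87, adjusted p = 0.0463, edgeR's quasi-likelihood test). The calls in the F1 hybrid and in Bd3-1 held under each of the 31 alternatives tried. That in Bd21 was lost under 15 of 31. Leaving out any 1 of the 6 Bd21 libraries gave log2 differences of 4.02 to 4.54 with adjusted p between 0.0646 and 0.197, and leaving out both of the shallowest libraries gave 4.04 with an adjusted p of 0.505. The call also fell away, at adjusted p between 0.0501 and 0.0702, without Bd3-1 drought replicate 1 or 2, Bd3-1 control replicate 4, F1 drought replicate 1, 2 or 5, or F1 control replicate 3 or 4, with the log2 difference at 4.35. These libraries are not part of the Bd21 contrast, but all 24 libraries are in 1 fit, in which the groups share an estimate of the spread. Which part of the fit moved the call was not tested.

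Bradi1g37410, one of the RAB18-type dehydrins, was silent in the control leaves of both accessions at this depth. F1 drought plants had 1601, 2208, 939, 4711 and 1940.4 normalized counts, against 8.51 and 7.80 in F1 control replicates 1 and 4 and 0 in the other 3 control plants. Bd3-1 drought plants had 245, 75.5 and 88.05, against 0 in all 5 control plants. Bd21 drought plants had 93.0, 29.5 and 30.7, against 0 in all 3 control plants. Every drought plant had this dehydrin, and the F1 drought plants had the most, with no overlap with either parent. With the control groups at 0, fold changes in the parents are lower bounds, set by a floor of 3 counts over the whole control group. Drought plants were at least 214-fold higher in Bd3-1 and at least 39.5-fold higher in Bd21 by this floor, which covers counting error only. The Bd3-1 response passed the test (adjusted p = 0.000637) and the Bd21 response did not (adjusted p = 0.0540, edgeR's quasi-likelihood test). In the F1 hybrid the log2 difference was 9.35 (standard error 0.80, adjusted p = 2.73e-06). The Bd21 response passed under 6 of 31 alternatives, among them DESeq2 (adjusted p = 0.00150), no filter on low counts (0.0407) and fits without Bd3-1 control replicate 3 (0.0493), F1 drought replicate 4 (0.0431) or F1 control replicate 2 (0.0428).

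Bradi3g43870, the other RAB18 ortholog, had a like pattern at fewer counts in the parents. F1 drought plants had 598, 1065, 642, 2728 and 150.3 normalized counts, against 5.96, 0, 1.30, 15.6 and 0 in F1 control plants. Bd3-1 drought plants had 84.4, 14.7 and 45.1, against 5.36, 0, 0, 6.56 and 0 in control plants. Bd21 drought plants had 48.1, 105 and 0, against 0, 2.73 and 0 in control plants. The groups did not overlap in the F1 hybrid or in Bd3-1, but in Bd21 drought replicate 3 was at 0 like 2 of the control plants. Replicates 1 and 4 had the most of both dehydrins among F1 control plants, and F1 drought replicate 4 had the most of both among drought plants. The log2 difference was 7.84 in the F1 hybrid (standard error 1.11, adjusted p = 7.65e-05) and 4.19 in Bd3-1 (standard error 1.15, adjusted p = 0.0874, edgeR's quasi-likelihood test). In Bd21 only 2 counts were in the control group, beside 115 in the drought group, a ratio of pooled normalized counts of 49.4 with an exact 95% counting interval of 13.4 to 413 (adjusted p = 0.303, same test). The parental responses of this gene were thus not called, although the F1 response was called under each of the 31 alternatives.

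Bradi4g24650, the ASR5 ortholog, was expressed in all 24 libraries and rose by a smaller factor. F1 drought plants had 37086.5, 48551, 19356, 30932 and 39861 normalized counts, against 8041, 5309, 4371, 4582 and 4032 in F1 control plants. Bd3-1 drought plants had 13794.5, 5956 and 10792, against 3187, 4413, 3374, 5236 and 2172 in control plants. Bd21 drought plants had 20719.7, 22320.5 and 17094, against 5093, 9842 and 9013 in control plants. Drought plants lay above control plants in every genotype, and Bd3-1 drought replicate 2, at 5956, was nearest to the control range. The log2 difference was 2.74 in the F1 hybrid (6.67-fold, standard error 0.29, adjusted p = 2.82e-06), 1.47 in Bd3-1 (2.77-fold, standard error 0.31, adjusted p = 0.0240) and 1.33 in Bd21 (2.51-fold, standard error 0.36, adjusted p = 0.2005, edgeR's quasi-likelihood test). The Bd3-1 call was lost without Bd3-1 drought replicate 1 (log2 difference 1.19, adjusted p = 0.214), Bd3-1 drought replicate 3 (1.43, adjusted p = 0.107) or Bd3-1 control replicate 1 (1.42, adjusted p = 0.0750), and in a fit of the Bd3-1 libraries alone (1.45, adjusted p = 0.104). The Bd21 response passed with DESeq2 (adjusted p = 0.0242) and in a fit of the Bd21 libraries alone (adjusted p = 0.0356).

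Bradi1g65130 was the 1 gene of the 5 that fell, and it nearly vanished in drought. F1 drought plants had 7.57, 3.68, 4.10, 0 and 0 normalized counts, against 580, 51.5, 469, 238 and 545 in F1 control plants. Bd3-1 drought plants had 3.30, 41.3 and 0, against 747, 333, 659, 348 and 171 in control plants. Bd21 drought plants had 3.79, 0 and 10.7, against 64.2, 349 and 497 in control plants. No drought plant reached the control range of its genotype, and Bd3-1 drought replicate 2 was the highest drought plant, at 41.3. The log2 difference was -6.60 in the F1 hybrid (standard error 0.96, adjusted p = 9.82e-05), -4.81 in Bd3-1 (standard error 1.04, adjusted p = 0.0273) and -5.83 in Bd21 (standard error 1.22, adjusted p = 0.0540, edgeR's quasi-likelihood test). The Bd3-1 call was lost without Bd3-1 drought replicate 1 (-4.35, adjusted p = 0.184), Bd3-1 drought replicate 3 (-4.30, adjusted p = 0.126) or Bd3-1 control replicate 1 (-4.56, adjusted p = 0.0750), and in a fit of the Bd3-1 libraries alone (-4.80, adjusted p = 0.0987). The Bd21 response passed under 8 of 31 alternatives, among them DESeq2 (adjusted p = 0.000938), a fit of the Bd21 libraries alone (0.0263) and fits without Bd3-1 drought replicate 2 or 3, Bd3-1 control replicate 5, F1 drought replicate 4 or F1 control replicate 2 (0.0256 to 0.0487).

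**Figure D2:**
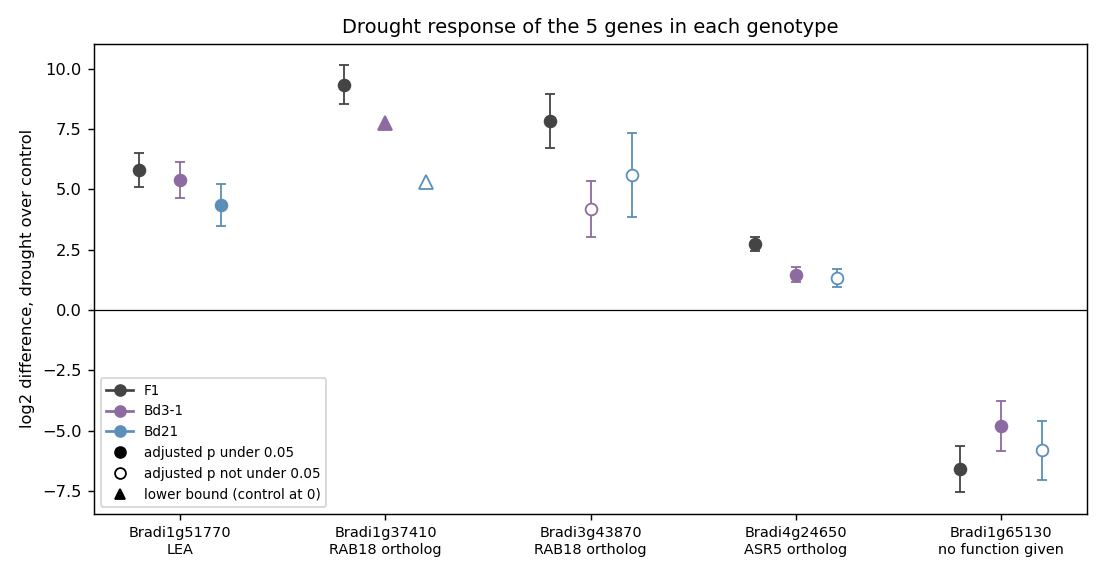
Log2 difference of drought over control for the 5 genes in the F1 hybrid, Bd3-1 and Bd21, with standard errors from edgeR's quasi-likelihood fit. Filled points passed an adjusted p of 0.05, open points did not, triangles for Bradi1g37410 are lower bounds because the control plants had no count, and the Bd21 point of Bradi3g43870 rests on 2 control counts. All 5 genes passed in the F1 hybrid, 4 in Bd3-1 and 1 in Bd21.

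The design also asks whether the accessions differ in these genes and in how they respond. None of the 5 genes passed an adjusted p of 0.05 for Bd3-1 against Bd21 in drought, where 1.86% of all genes passed, or in control, where 2.51% did (edgeR's quasi-likelihood test). In control Bradi1g37410 could not be compared, because no control plant of either accession had a count. At an unadjusted p under 0.05 there was 1 gene in drought (Bradi4g24650), where 9.74% of all genes had one. In control there were 2 (Bradi4g24650 and Bradi1g51770), where 11.5% of all genes had one. DESeq2 called 0 of the 5 in drought and 1 in control, where it called 718 and 936 of all genes. The ASR5 ortholog Bradi4g24650 came nearest, with the Bd3-1 plants below the Bd21 plants under drought and overlapping them in control. Its log2 difference, Bd3-1 over Bd21, was -0.98 in drought (standard error 0.36, adjusted p = 0.267) and -1.12 in control (standard error 0.31, adjusted p = 0.0547). The control difference passed with relative log expression factors (adjusted p = 0.0448), with DESeq2 (0.00991), without both shallowest libraries (-1.36, adjusted p = 0.0323), and without any 1 of Bd21 control replicate 1 (-1.36, 0.0268), Bd3-1 control replicate 4 (-1.29, 0.0271), Bd3-1 drought replicate 2 (0.0375), F1 drought replicate 3 (0.0333) or F1 control replicate 1 (0.0362).

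The LEA gene Bradi1g51770 did not pass for either treatment, although each Bd3-1 plant had less of it than any Bd21 plant of the same treatment. The accessions separate in this way, in one direction or the other, in 16.1% of all genes in drought and 10.3% in control. In drought Bd3-1 had 283 to 943 normalized counts and Bd21 had 1135 to 2212, and in control Bd3-1 had 1.79 to 40.2 and Bd21 had 68.4 to 80.7. The log2 difference was -1.14 in drought (standard error 0.75, adjusted p = 0.698) and -2.18 in control (standard error 0.76, adjusted p = 0.183, edgeR's quasi-likelihood test). The dehydrin Bradi1g37410 had 75.5 to 245 normalized counts in Bd3-1 drought plants and 29.5 to 93.0 in Bd21 drought plants, ranges that overlap (log2 1.34, standard error 0.71, adjusted p = 0.593). Bradi3g43870 differed by -0.02 in drought (standard error 1.08, adjusted p = 0.999), and Bradi1g65130 by 1.58 (standard error 1.17, adjusted p = 0.750), which turned to -1.38 without Bd3-1 drought replicate 2. The sign of Bradi3g43870 turned as well without Bd21 drought replicate 2 (0.89), Bd3-1 drought replicate 2 (0.43) or Bd3-1 drought replicate 3 (0.02).

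No G × E between the accessions was called for the 5 genes, nor for any of the 22629 genes (0.0% at an adjusted p of 0.1, edgeR), of which 770 had an unadjusted p under 0.05, none of them among the 5. DESeq2 called 8 genes and none of the 5. The study displayed Bradi1g65130 as an example from far more plants per group, sequenced by another library method. By the study's account, the parental samples here, apart from those of the F1 harvest, were drawn from that same experiment. With few plants per group here, the lack of a call cannot decide on that example. The difference between the accessions' log2 responses, Bd3-1 minus Bd21, was 1.02 for Bradi1g65130 (standard error 1.41), 1.04 for Bradi1g51770 (1.06), -1.40 for Bradi3g43870 (2.37) and 0.14 for Bradi4g24650 (0.47). Each was smaller than its standard error. For Bradi1g65130 the sign rested on Bd3-1 drought replicate 2, without which the difference was -1.94. For Bradi1g37410 no difference could be estimated, with both control groups at 0.

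Under drought 3 of the 5 genes were higher in the F1 hybrid than midway between its parents, both dehydrins and the ASR5 ortholog. The F1 plants were set against the mid-parent, the mean of the parents' log2 levels, and 3 of 5 genes passed as higher, where 1.85% of all genes passed and 1.3% as higher (edgeR's quasi-likelihood test, adjusted p under 0.05). Bradi1g37410 had 939 to 4711 normalized counts in F1 drought plants, against 75.5 to 245 in Bd3-1 and 29.5 to 93.0 in Bd21. Its lowest F1 plant was above every parental drought plant, as in 1.43% of all genes. The log2 difference over the mid-parent was 4.73 (standard error 0.56, adjusted p = 5.47e-05). Bradi3g43870 had 150.3 to 2728 in F1 drought plants, against 14.7 to 84.4 in Bd3-1 and 0 to 105 in Bd21, again without overlap (log2 4.42, standard error 0.84, adjusted p = 0.00386). Bradi4g24650 had 19356 to 48551 in F1 drought plants, against 5956 to 13794.5 in Bd3-1 and 17094 to 22320.5 in Bd21. Here F1 drought replicate 3, the lowest, fell within the Bd21 range while the other 4 lay above it (log2 1.30, standard error 0.26, adjusted p = 0.00723). These 3 calls held under each of the 31 alternatives.

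The other 2 genes were not called against the mid-parent under drought. The LEA gene Bradi1g51770 had 1341 to 2047 in F1 drought plants, within the range of 1135 to 2212 in Bd21 and above that of 283 to 943 in Bd3-1 (log2 0.60, standard error 0.55, adjusted p = 0.711, edgeR). Bradi1g65130 was at -1.26 with a standard error of 0.96 (adjusted p = 0.629), and at 0.22 without Bd3-1 drought replicate 2. In control none of the 5 genes passed against the mid-parent, where 1.27% of all genes did. By unadjusted p under 0.05 there was 1, where 17.3% of all genes had one. It was Bradi1g37410, which had 16 counts in F1 control plants and none in the parents. DESeq2 called 1 of the 5 and 967 of all genes. The drought response itself was not called as different from the mid-parent response for any of the 5, nor for any other gene (0.0%, against 7.43% at an unadjusted p under 0.05, edgeR, and 19 genes with DESeq2). It was 1.34 larger on the log2 scale for Bradi4g24650 (standard error 0.36, unadjusted p = 0.00122, adjusted p = 0.505), the 1 gene of the 5 with an unadjusted p under 0.05. For Bradi3g43870 it was 2.95 larger, with a standard error of 2.07. For Bradi1g37410 this difference could not be estimated, because no parental control plant had a count.

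Allele counts in the hybrid address whether a difference between the accessions lies in the gene copy itself (in cis). Reads are assigned to the Bd21 or the Bd3-1 copy by sequence variants. Over all genes whose allele counts differ in any library, the Bd21 allele held 50.3% to 51.0% of the counts of each F1 library. For Bradi3g43870 the deposited allele counts were equal in each of the 16 libraries with counts and so carry no allelic information, and it has no allele test. In the parents, 99.98% of the allele counts of Bradi1g51770, 100% of those of Bradi1g37410, 99.85% of those of Bradi4g24650 and 99.7% of those of Bradi1g65130 fell on the plant's own allele. The study's criterion for distinguishable alleles (more than 1 count of the own allele and under 20% on the other, in each of 14 parental libraries) was met in all 14 by Bradi4g24650, in 13 by Bradi1g51770, in 9 by Bradi1g65130 and in 6 by Bradi1g37410. Bradi1g65130 had equal allele counts in 5 libraries, which carry no allelic information. Applied here to each parental library, the study's criterion gave another number of genes than the study reports. The allele fits held 3407 genes, the 3404 that met this criterion in all 14 libraries, Bradi4g24650 among them, and the other 3 testable genes of the 5, which did not. At the study's threshold, an unadjusted P under 0.1, 1 of the 4 testable genes passed for a cis difference in drought, against 24.5% of these genes, and 1 in control, against 24.7%. For cis by environment 1 passed, against 12.2%.

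**Figure D3:**
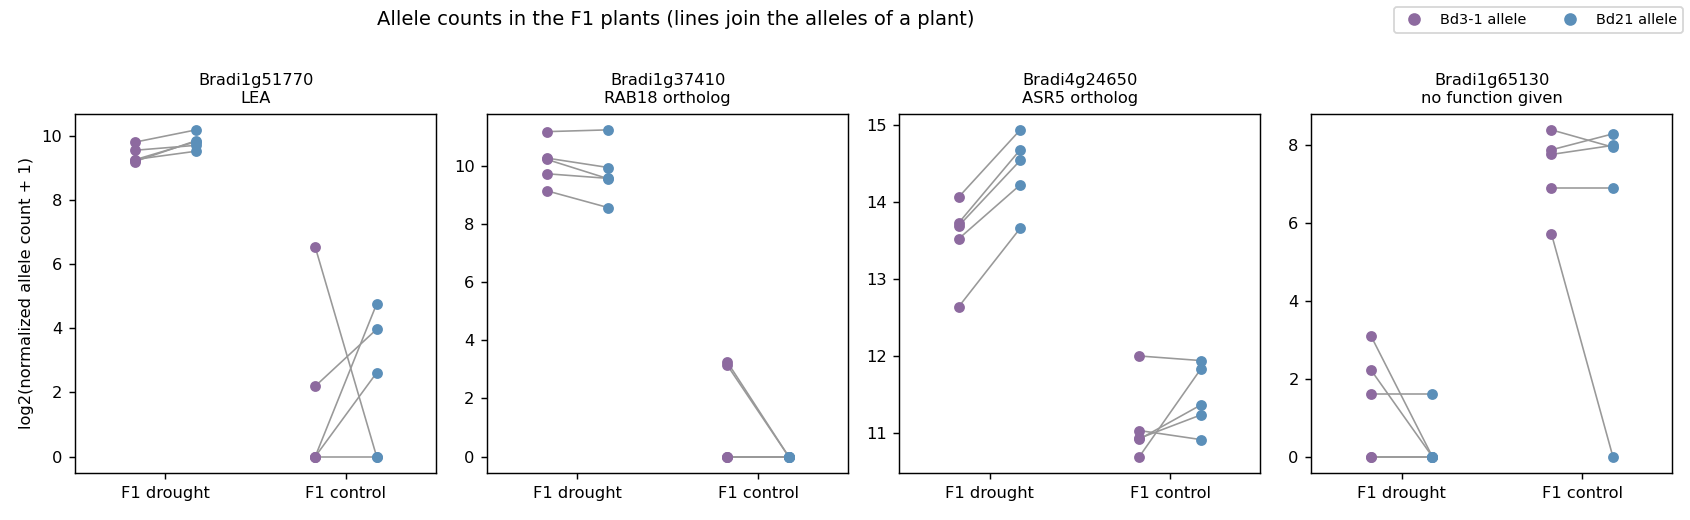
Normalized allele counts in F1 plants, as log2(normalized allele count + 1), for the 4 genes whose alleles could be told apart, in drought and control (n = 5 plants each). Each line joins the Bd3-1 and Bd21 allele of a plant. For Bradi4g24650 the Bd21 allele is higher in 5 of 5 drought plants and 3 of 5 control plants.

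The ASR5 ortholog had more counts on the Bd21 allele in all 5 F1 drought plants and in 3 of 5 F1 control plants. In drought the Bd21 allele took 64.3%, 64.6%, 66.9%, 61.9% and 65.8% of the allele counts of Bradi4g24650 in the 5 F1 plants, and 64.6% of their sum (Wilson 95% interval 64.4 to 64.9, counting error only). In control it took 49.0%, 68.7%, 55.2%, 57.6% and 48.0%, and 55.1% of the sum (54.5 to 55.7). The shares of the drought plants lay close together, all between 61.9% and 66.9%, whereas control plants spread on both sides of an even division and F1 control replicate 2 was highest. The log2 ratio of Bd3-1 to Bd21 allele averaged -0.88 ± 0.12 in drought (SD, n = 5; below 0 in 5 of 5 plants, exact sign-flip permutation test, two-sided, p = 0.0625, the smallest that 5 plants allow). In control it averaged -0.34 ± 0.50 (SD, n = 5; below 0 in 3 of 5 plants, same exact test, p = 0.25). Over all 10 plants it was below 0 in 8 (same exact permutation test, p = 0.00781).

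In edgeR's fit the cis difference of Bradi4g24650 in drought was -0.87 on the log2 scale (standard error 0.30, unadjusted P = 0.00650, adjusted p = 0.0871), beside a parental difference of -0.98. In control it was -0.31 (standard error 0.30, unadjusted P = 0.303), beside a parental difference of -1.12. Since both alleles come from the same plant, a fit with the plant as a block was made as well. It gave -0.88 in drought (unadjusted P = 8.68e-05, adjusted p = 0.00672) and -0.34 in control (unadjusted P = 0.0415, adjusted p = 0.296), so that the control difference then passed the study's threshold. The change of the cis difference with drought was -0.56 (unadjusted P = 0.191) without and -0.54 (unadjusted P = 0.0243, adjusted p = 0.970) with the block, and -0.54 by exact permutation of the plants' ratios (two-sided, p = 0.0635, n = 5 and 5). It also passed in the fit without F1 control replicate 2 (-0.75, unadjusted P = 0.0993). The trans difference, the part of the parental difference that the alleles of the hybrid leave over, was -0.11 in drought (unadjusted P = 0.815) and -0.81 in control (unadjusted P = 0.0794). The control value did not pass the threshold without any 1 of 8 libraries, namely Bd21 control replicate 2 or 3, Bd3-1 control replicate 1, 3 or 5, or F1 control replicate 1, 3 or 5 (-0.81 to -0.64, unadjusted P = 0.105 to 0.202). For trans, 2 of the 4 genes passed in control, against 9.19% of the 3407 genes, and none in drought, against 7.63% (edgeR). DESeq2 gave 3 and 0, and none of the 4 had a P under 0.05 in drought by either tool. In control no trans value could be estimated for Bradi1g37410, which DESeq2 counted among its 3, because no parental control plant had a count. In drought all counts of Bradi1g65130 in Bd21 plants were divided equally, so its trans value rests in part on counts without allelic information.

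By allele, the hybrid's drought levels can be set beside those of each parent. The Bd21 allele of Bradi4g24650 averaged 22712 ± 7016 normalized counts in F1 drought plants (SD, n = 5), against 20042 ± 2676 in Bd21 drought plants, which carry 2 copies of it (SD, n = 3). The Bd3-1 allele averaged 12445 ± 3914 in F1 drought plants, against 10149 ± 3946 in Bd3-1 drought plants (SD, n = 5 and 3). For both alleles the ranges in the hybrid and in the parent overlapped. For the dehydrin Bradi1g37410 the single Bd3-1 copy averaged 1226 ± 662 in F1 drought plants, against 136 ± 94.3 in Bd3-1, and the single Bd21 copy 1054 ± 786, against 51.1 ± 36.3 in Bd21. Every F1 drought plant had more of each allele of this dehydrin than any drought plant of the parent that carries it, with 562 to 2306 against 75.5 to 245 for the Bd3-1 allele and 377 to 2405 against 29.5 to 93.0 for the Bd21 allele. These levels were not tested, and the share of all genes that separate in this way by allele was not counted.

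Both alleles of the dehydrin Bradi1g37410 were expressed in F1 drought plants in near-equal amounts. The Bd21 allele took 47.2%, 44.4%, 40.1%, 51.1% and 38.7% of the allele counts in drought, and 46.1% of the sum (Wilson 95% interval 45.1 to 47.1). The Bd3-1 allele was the higher in 4 of 5 plants, F1 drought replicate 4 being the exception, at a mean log2 ratio of 0.33 ± 0.30 (SD, n = 5; exact sign-flip permutation test, two-sided, p = 0.125). The cis difference in drought was 0.22 (standard error 0.60, unadjusted P = 0.719, edgeR). In control the gene had only 16 allele counts, 10 in replicate 1 and 6 in replicate 4, and all were on the Bd3-1 allele, which allows a Bd21 share of up to 30.0% and 50.0% in these plants (3 counts of the total). This gave a called cis difference in control (unadjusted P = 0.0111, adjusted p = 0.124) and a called cis by environment term (unadjusted P = 0.0217, adjusted p = 0.660, edgeR), both of which rest on those 16 counts in 2 plants.

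The LEA gene Bradi1g51770 had more counts on the Bd21 allele in each F1 drought plant. The Bd21 allele took 61.1%, 56.6%, 59.7%, 52.7% and 54.5%, and 58.0% of the sum (Wilson 95% interval 56.9 to 59.0). The log2 ratio of Bd3-1 to Bd21 was -0.40 ± 0.21 (SD, n = 5; below 0 in 5 of 5 plants, exact sign-flip permutation test, p = 0.0625). The cis difference in drought of edgeR's fit, -0.40, had a standard error of 0.82 (unadjusted P = 0.629) and was not called, with or without the plant as a block. In control the few counts lay mostly on 1 allele in each plant: all 94 of F1 control replicate 2 on the Bd3-1 allele, all 6 of replicate 1 and all 20 of replicate 3 on the Bd21 allele, 11.3 of 14 in replicate 4 on the Bd21 allele, and none at all in replicate 5. The 0 of 94 allows a Bd21 share of up to 3.19% in that plant (3 counts of the total). The cis difference in control was 1.18 (unadjusted P = 0.251) and turned to -3.50 (unadjusted P = 0.00457) without F1 control replicate 2, and was 2.37 (unadjusted P = 0.0426) without F1 control replicate 3. The trans difference in control, -3.38 (unadjusted P = 0.0251, adjusted p = 0.999), turned to 1.30 (unadjusted P = 0.342) without F1 control replicate 2.

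Bradi1g65130, high in control, had neither allele higher in all F1 control plants. The Bd21 allele took 42.3%, 0%, 54.0%, 50.0% and 57.1% of the allele counts in F1 control plants, and 48.2% of the sum over the 4 plants whose allele counts differ (Wilson 95% interval 45.8 to 50.7). The 0% was F1 control replicate 2, with 53 counts, which allows a share of up to 5.66% (3 counts of the total), and the 50.0% of replicate 4 was an equal division of 183 counts, which carries no allelic information. In drought 16 informative counts were left in 2 plants, all on the Bd3-1 allele, which allows a Bd21 share of up to 18.75% (3 counts of the total). The 5 counts of F1 drought replicate 3 were divided equally. The cis difference was 2.64 in drought (standard error 1.56, unadjusted P = 0.102) and 0.04 in control (standard error 0.85, unadjusted P = 0.964, edgeR), in fits that include the equally divided counts. Without those plants it was 4.83 in drought (unadjusted P = 0.0513) and 0.04 in control (unadjusted P = 0.964). The drought value passed in 8 of 28 alternatives, among them DESeq2 (unadjusted P = 0.0474) and fits without Bd21 control replicate 1, Bd3-1 drought replicate 1, 2 or 3, F1 control replicate 2, or F1 drought replicate 3 (unadjusted P = 0.0513 to 0.0971).

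From the study's text 12 other ABA and drought genes were taken as a list, and 11 of them rose in the F1 hybrid. In the F1 hybrid 11 of 12 passed as higher and 1 as lower (edgeR's quasi-likelihood test), against 7.58% and 7.31% of all genes, with a median log2 difference of 2.63, against 0.04 over all genes. In Bd3-1, 7 of 12 passed as higher, against 0.433% of all genes, with a median of 1.77, against -0.01. In Bd21, 3 of 12 passed as higher, against 0.0751% of all genes, with a median of 1.54, against 0.01. The 3 were Bradi3g50220, Bradi4g39520 and Bradi3g39800. These genes too were named from the study's main experiment, so their direction in the parents is not independent evidence. The largest rise was that of Bradi1g13760, ortholog of NCED2 of the ABA synthesis pathway, with 2397 ± 824 normalized counts in F1 drought plants and 59.2 ± 83.9 in F1 control plants (SD, n = 5 each; log2 5.36, standard error 0.82, adjusted p = 0.000173, edgeR). Bradi3g50220, ortholog of the ABA-responsive transcription factor ATHB-7, had 8211 ± 1363 in F1 drought plants and 442 ± 205 in F1 control plants (log2 4.22, adjusted p = 8.09e-08). The smallest rise was that of Bradi2g20660, a gene of stomatal movement, at 0.77 (adjusted p = 0.0343). The 1 gene that fell was Bradi2g23740, a gene of wax biosynthesis, with 2870 ± 810 in F1 drought plants and 7777 ± 2574 in F1 control plants (log2 -1.44, adjusted p = 0.0381).

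**Figure D4:**
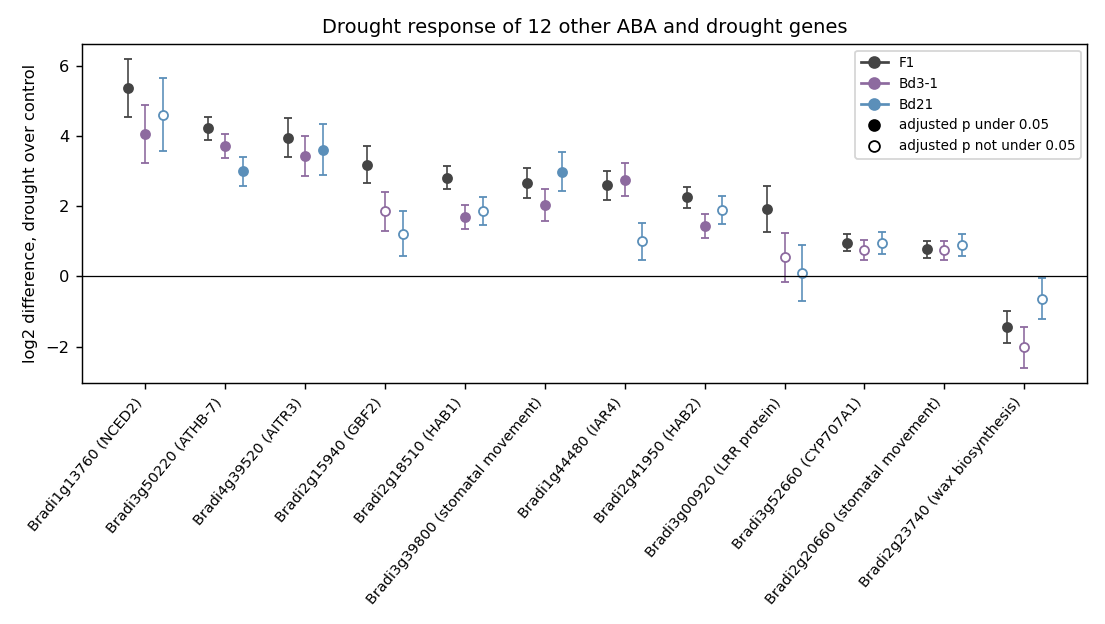
Log2 difference of drought over control, with standard errors from edgeR's quasi-likelihood fit, for the 12 other ABA and drought genes in the F1 hybrid, Bd3-1 and Bd21. Filled points passed an adjusted p of 0.05: 12 in the F1 hybrid, 7 in Bd3-1 and 3 in Bd21.

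Against the mid-parent under drought, 1 of the 12 passed as higher, Bradi3g50220 (log2 1.76, adjusted p = 0.000403, edgeR), beside 3 of the 5 genes and 1.3% of all genes. The median log2 difference was 0.82 for the 12, 1.30 for the 5 and 0.06 for all genes. For Bd3-1 against Bd21 none of the 12 passed in drought, where 1.86% of all genes did. In control 1 passed, Bradi3g39800 of stomatal movement (log2 2.05, adjusted p = 0.0258, edgeR), where 2.51% of all genes did.

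The genes whose pattern over the 24 libraries was most like each of the 5 were sought among 21106 genes, by the root-mean-square difference of centred log2(normalized count + 1) profiles. The dehydrins were close to each other: Bradi3g43870 was the second nearest of all genes to Bradi1g37410, and Bradi1g37410 the nearest of all to Bradi3g43870, at a difference of 1.76, beside medians over all genes of 4.41 and 3.71. The nearest to Bradi1g37410 was Bradi4g40850 (1.61), and after Bradi3g43870 came Bradi2g18090 (1.86). Bradi2g11567 (1.89) and Bradi5g07910 (1.92) followed for Bradi3g43870. Nearest to the LEA gene Bradi1g51770 were Bradi3g00910 (1.56), Bradi1g46710 (1.59) and Bradi2g45050 (1.60), with a median of 3.46. Nearest to Bradi4g24650 were Bradi4g44410 (0.57), Bradi3g45636 (0.67) and Bradi4g31360 (0.67), with a median of 1.44. Nearest to Bradi1g65130 were Bradi1g43990 (1.76), Bradi5g00810 (1.78) and Bradi1g25530 (1.83), with a median of 3.53. The libraries share treatment, depth and experiment, so that likeness here is a description over libraries only. None of the 12 listed genes was among the 3 nearest of any of the 5.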

How the data were processed

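Leaf RNA of 24 plants was sequenced by stranded poly(A) RNA-seq. The authors trimmed the reads, called Bd3-1 variants against the Bd21 v3.2 reference (STAR 2.6.1b and GATK 4.2.5.0, versions from the submitters' processing notes), built a diploid transcriptome and aligned to it with Bowtie 1.2.2. They deposited estimated counts (expected counts) from emase, with a column for each allele of each library, without normalization. These need not be whole, and 90.4% of the totals were. emase divides multimapping reads, so genes with near-identical copies are uncertain. Which column is which allele was read from the parental libraries. Over the 10189 genes whose columns differ, the first column held 88.5% to 91.6% of the counts in Bd21 libraries and 8.85% to 11.8% in Bd3-1 libraries.

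Both columns were added, rounded and tested in edgeR 4.0.16 (R 4.3.3) by the quasi-likelihood F-test with TMM factors. Genes above 0 in more than 10 libraries were kept (22629), 1 coefficient per group was fitted over all 24 libraries, and p-values were adjusted by Benjamini-Hochberg. Thresholds were 0.05, and 0.1 for G × E. Standard errors are the log2 difference over the square root of F. Allele counts were tested on 34 columns, the own allele of 14 parental and both alleles of 10 F1 libraries, at the study's unadjusted P of 0.1. Per-plant allele ratios used a pseudocount of 1. The tests were also tried on simulated data, drawn with the gene means and library sizes of these data. There the spread was set alike for all genes, and each gene had the same mean in all groups before changes were added. These trials therefore cannot speak for genes with a group at or near 0. DESeq2 1.42.0, relative log expression factors, other filters, fits of the compared groups alone, blocks, other pseudocounts and leaving out each library were alternatives. Leaving out both shallowest libraries and the permutation of allele ratios were chosen after seeing the data.

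Genes named are the 5, the 3 most similar genes to each and 12 genes from the study's text. The 5 genes, the lists and the tests were chosen with earlier results of these data known. None of 31335 RefSeq genes (assembly Brachypodium_distachyon_v3.0) shared an identifier with the files (0 matches). Products, positions, sequences, other LEA genes and seed markers were therefore not used here. All 39 pairs of replicates were distinct beyond counting noise (lowest ratio of chi-square to its degrees of freedom, 17.4). Intervals cover counting error only, since reads carry no molecular identifiers. Fewer cells of a type and less RNA per cell cannot be told apart in whole leaves.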

Additional observations from a re-analysis of the deposited data

Results flagged for a closer look

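Among 14 groups of 4 or 5 plants tested for a plant apart from the others, 1 was found, where chance gives about 1 in 20. The LEA gene Bradi1g51770 had 91.4 normalized counts in F1 control replicate 2, and the gap to the next plant was 0.716 of the range of the 5 F1 control plants. All of the allele counts in that plant were on the Bd3-1 allele. The log2 ratio of the Bd3-1 to the Bd21 allele of the dehydrin Bradi1g37410 differed between drought and control F1 plants by -4.57 (edgeR's quasi-likelihood test, unadjusted P = 0.0217), with 16 control counts behind it, and by -2.80 in an exact permutation of the ratios of 5 drought and 2 control plants (two-sided, p = 0.0952).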

How the results depend on the processing

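All 5 calls in the F1 hybrid and the 3 calls of F1 above mid-parent in drought held in every alternative run. The counts of calls in the parents changed with the settings. Of the 5 genes, 1 was called in Bd21, against 4 with DESeq2, 3 without a filter, 3 with the compared groups alone, 2 with the replicate block and 0 without the 2 shallowest libraries (0 to 3 leaving out each library). In Bd3-1 4 were called, against 2 with the compared groups alone (2 to 4 leaving out each library). The accession difference in control had 0, and 1 with relative log expression factors, DESeq2 or without the 2 shallowest libraries (0 to 1). F1 against mid-parent in control had 0, and 1 with DESeq2. Over all genes the calls were 22 (DESeq2 220, replicate block 13) in Bd21 and 163 (DESeq2 726, replicate block 83) in Bd3-1.

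Of the 4 genes with alleles, 1 passed for cis in control, against 2 with the plant as a replicate block (1 to 2 leaving out each library), 1 for cis in drought, against 2 with DESeq2 or with all genes whose columns differ (1 to 2), and 1 for cis by environment, against 2 with the plant block (1 to 4, the highest without F1 control replicate 2). Alleles are paired by plant.

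Replicate numbers did not pair the plants (correlations -0.12 to 0.12). With the replicate block Bradi3g43870 was called in Bd3-1 (4.83, adjusted p = 0.0449) and Bradi1g37410 in Bd21 (adjusted p = 0.0399), while Bradi4g24650 (1.46, adjusted p = 0.0744) and Bradi1g65130 (-5.04, adjusted p = 0.0825) were not called in Bd3-1.

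Signs turned as follows, and the cause was not tested. The accession difference of Bradi3g43870 in drought was 0.25 with the replicate block and 0.87 without the 2 shallowest libraries (-0.74 to 0.89 leaving out each library), and that of Bradi1g65130 ranged from -1.38 to 2.46. F1 against mid-parent in control for Bradi1g65130 was -0.0039 with the compared groups alone and -0.23 without the 2 shallowest libraries (-0.23 to 0.30), and for Bradi4g24650 it ranged from -0.25 to 0.0483. For Bradi1g65130 the ranges were -1.87 to 0.22 for F1 against mid-parent in drought, -1.89 to 0.20 for the F1 response, -1.94 to 1.90 for G × E, -0.14 to 0.22 for cis in control, -0.0491 to 1.49 for the allele ratio in control and -4.22 to 1.09 for trans in drought. For Bradi4g24650 they were -0.14 to 0.41 for G × E and -0.40 to 0.16 for trans in drought. For Bradi1g51770 cis in control was -1.11 and cis by environment 0.71 with the plant block, and the permutation of ratios gave 0.18. Leaving out each library gave -3.50 to 2.37 for cis in control, -2.77 to 3.10 for cis by environment, -2.97 to 0.68 for the allele ratio in control and -4.58 to 1.30 for trans in control.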
